A study of Mus musculus with 19 samples.

Results

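The genes described here code for the nuclear pore and for the carriers that move cargo through it: every gene whose symbol is Nup, Ipo, Kpna, Kpnb or Xpo followed by a number, together with *Tpr*, *Ndc1*, *Aaas*, *Seh1l* and *Cse1l*. The rule used symbols only and no measured value, and it found 43 of the 54352 genes counted. By role they are 7 genes of the Y complex, 5 of the inner ring, 2 of the central channel, 4 of the cytoplasmic side, 3 of the nuclear basket, 2 of the pore membrane, 6 importin alphas, 8 members of the importin beta family and 6 exportins. Of these, 42 had enough counts to be tested in every comparison. The exception was *Kpna7*, an importin alpha best known from eggs and early embryos, with 0 to 5 counts in a library and at least 1 count in 17 of 19 libraries.

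The nuclear pore is a ring of repeated protein blocks set in the nuclear envelope, in which scaffold rings hold a central channel of flexible proteins. Importins pick up cargo in the cytoplasm, usually through an importin alpha that reads the import signal and an importin beta that touches the pore, and release it in the nucleus when Ran bound to GTP binds them. Exportins work in the opposite sense, and dividing blood progenitors have to rebuild their pores after each mitosis.

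RNA was sequenced from bone marrow LSK cells (called KLS in the labels), the population that holds the stem cells, and from CMPs, the common myeloid progenitors. Donor stem cells from C57BL6 mice (so labelled, and C57BL6J in the study's methods) had been transduced with a doxycycline-inducible shRNA together with zsGreen, and were transplanted into sub-lethally irradiated C57BL/6-CD45.1; cKit-w41 recipients, which carry the w41 mutation of *Kit*, aged 9 to 12 weeks and of both sexes, with no competitor cells. After 10 weeks all animals, controls included, ate doxycycline food for 6 days, and zsGreen+ cells were sorted. The shRNA was sh10 or sh20 against the lncRNA *Spehd*, or a control shRNA against *Renilla* luciferase, with 4 *Renilla*, 3 sh10 and 3 sh20 libraries from LSK and 4 *Renilla*, 3 sh10 and 2 sh20 libraries from CMP. Each shRNA was 1 hairpin in a viral vector, each well of transduced cells went into several animals, the irradiated hosts kept some cells of their own, and the labels do not say whether replicates came from separate animals, so p-values here measure the spread between these libraries. In sorted bulk cells, fewer cells of a type and less RNA per cell cannot be told apart. The level of *Spehd* itself was not analysed here, so the knockdown was not checked in these libraries.

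The 2 hairpins are the perturbation to which every knockdown value below refers, so their guide strands are given first, 5′ to 3′, as 22 bases cut from the 97-base hairpins that the study lists. Capitals mark the seed, bases 2 to 8.
sh10 guide: tACAAAGTcagcttttcctctc
sh20 guide: tATGCTATgacaacccagggca
The letters complementary to the sh10 seed were found in the 3′ UTR of 9 of the 42 tested members, against 19.2% of 12694 tested genes with an annotated 3′ UTR, and those complementary to the sh20 seed in 5 members, against 8.95%. The 9 were *Nup37*, *Nup85*, *Cse1l*, *Xpo7*, *Kpna1*, *Kpna4*, *Ipo7*, *Nup155* and *Nup35*, and the 5 were *Xpo7*, *Kpna4*, *Ipo9*, *Kpnb1* and *Nup155*. Such a match is a description of letters in GENCODE transcripts and not a site.

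Libraries held 3647318 to 5965155 counts on genes. In CMP the depth moved with the shRNA: the *Renilla* libraries had 3857980 to 4314959 counts, the sh10 libraries 4918631 to 5228700 and the sh20 libraries 5680969 to 5965155, so that depth and shRNA cannot be told apart there. Of the markers, *Ly6a*, a surface marker of LSK cells, lay at 39.9 to 81.7 CPM (counts scaled by effective library size) in LSK and at 1.58 to 9.83 CPM in CMP. The 7 erythroid markers summed to 1524 to 1957 CPM in CMP against 223 to 458 CPM in LSK. The 8 granulocyte and monocyte markers, with which CMPs are also associated, were lower in CMP (478 to 866 CPM) than in LSK (992 to 1319 CPM). In *Renilla* libraries, 7 mast cell, basophil and eosinophil markers summed to 146 to 223 CPM in CMP and 395 to 1243 CPM in LSK. There 5 megakaryocyte markers summed to 817 to 1414 and 519 to 807 CPM, and 5 red cell genes to 25.8 to 75.9 and 4.65 to 9.84 CPM. The 15 S phase genes summed to 4406 to 4702 and 3888 to 4250 CPM. The 7 mature neutrophil markers summed to 4.23 to 293 CPM in LSK *Renilla* libraries, 64.9 to 277 CPM in LSK sh10 libraries and 3.12 to 6.9 CPM in LSK sh20 libraries. They reached at most 10.7 CPM in any CMP library, with 6 of the 7 detected in each CMP group. Their part in the results below was not tested.

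A single library stood apart in these genes. In LSK sh10 replicate B the 42 members lay at a median of -0.79 log2 CPM from their own means over the 19 libraries, and 24 of them had their lowest value there. The longer members were furthest down, with a median of -1.28 for the 21 members above 6794 bases of exonic length and -0.41 for the other 21. The median over all genes in that library was 0.02, and its M phase genes summed to 2572 CPM, the lowest of the LSK libraries. Rows naming no gene held 77.7% of the total for that library, the highest of the 19 libraries. In the other 18 libraries the members' median lay between -0.12 and 0.45. The members' medians and the named members of each LSK comparison are therefore also given without this library.

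**Figure D1:**
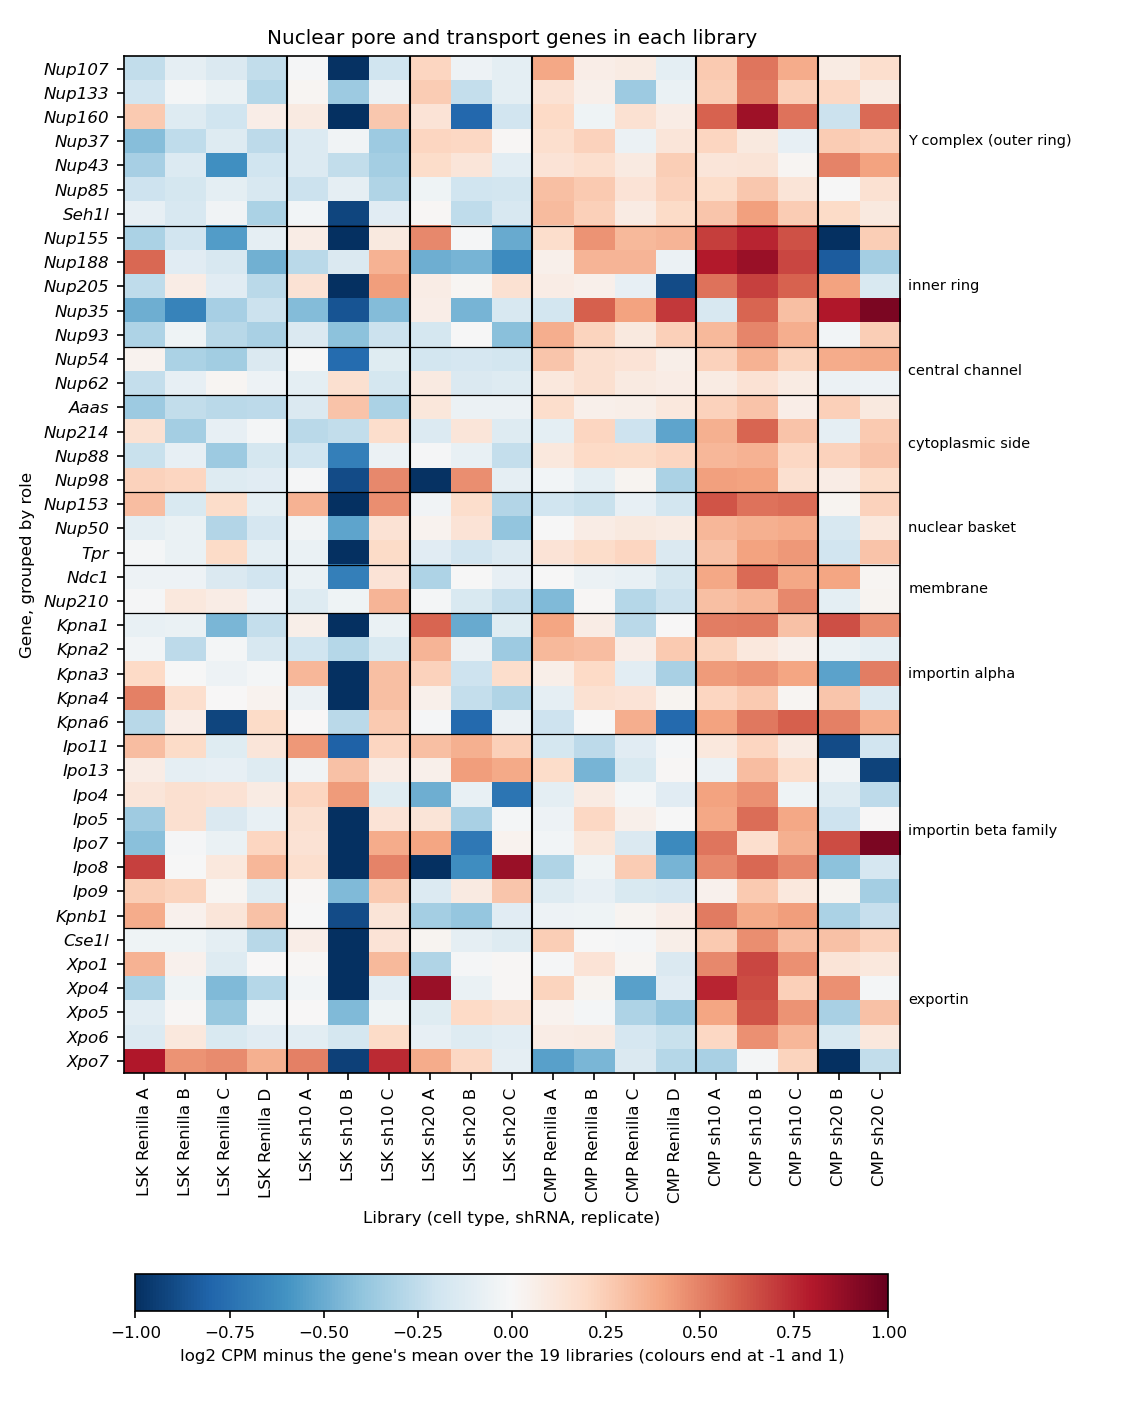
Heat map of the 42 tested members (rows, grouped by role) in the 19 libraries (columns, grouped by cell type and shRNA); colour is log2 CPM minus the gene's mean over the 19 libraries and ends at -1 and 1. LSK sh10 replicate B is the blue column, and the 3 CMP sh10 libraries are mostly red.

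Levels between genes were compared as CPM per kilobase of exonic length, over all 19 libraries. The highest member was *Nup62*, the protein at the heart of the central channel, with a mean of 113 CPM per kb and a range of 95.8 to 126 over the libraries. *Nup85* of the Y complex followed with 83.1 CPM per kb, and its range of 67 to 102 overlapped the lower end of that of *Nup62*. *Aaas*, a WD-repeat protein of the cytoplasmic side, *Nup107* of the Y complex and *Nup210* of the pore membrane came next at 58.9, 58 and 57.8 CPM per kb, and their ranges overlapped. The lowest was *Kpna7* at 0.137 CPM per kb, and the lowest of those tested was *Nup35*, an inner ring protein, at 3.54 CPM per kb. Among carriers, *Cse1l*, which returns importin alpha to the cytoplasm, and *Xpo1*, the main exporter of proteins with a leucine-rich signal, led the exportins at 50.4 and 43.2 CPM per kb. *Ipo5* led the importin beta family at 41 CPM per kb, above the classical partner of importin alpha, *Kpnb1*, at 23.1 CPM per kb, and their ranges of 20 to 59 and 12.1 to 32.3 overlapped.

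Some of these levels rest on sequence shared with other genes. A read that maps to several places, or to exons of several genes at once, is not counted. In GENCODE vM21 transcripts, 62.6% of the 50-base words of *Kpna2* were also found in other genes, chiefly *Gm10184*, as were 39.2% of those of *Nup35*, chiefly in *Gm4353*. *Ipo4* shared 51.6% of its words with *Gm49378*, a gene model that covers 55.3% of its exonic bases on the same strand. The counts of these 3 genes, 56 to 100, 31 to 124 and 156 to 336 in a library, are therefore uncertain. For *Ipo4* this holds only if *Gm49378* was among the genes counted. The study counted on an earlier GENCODE release than vM21, and whether that release held *Gm49378* was not checked. For *Nup54* the share was 13.9% and for the other members it was below 10%.

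**Figure D2:**
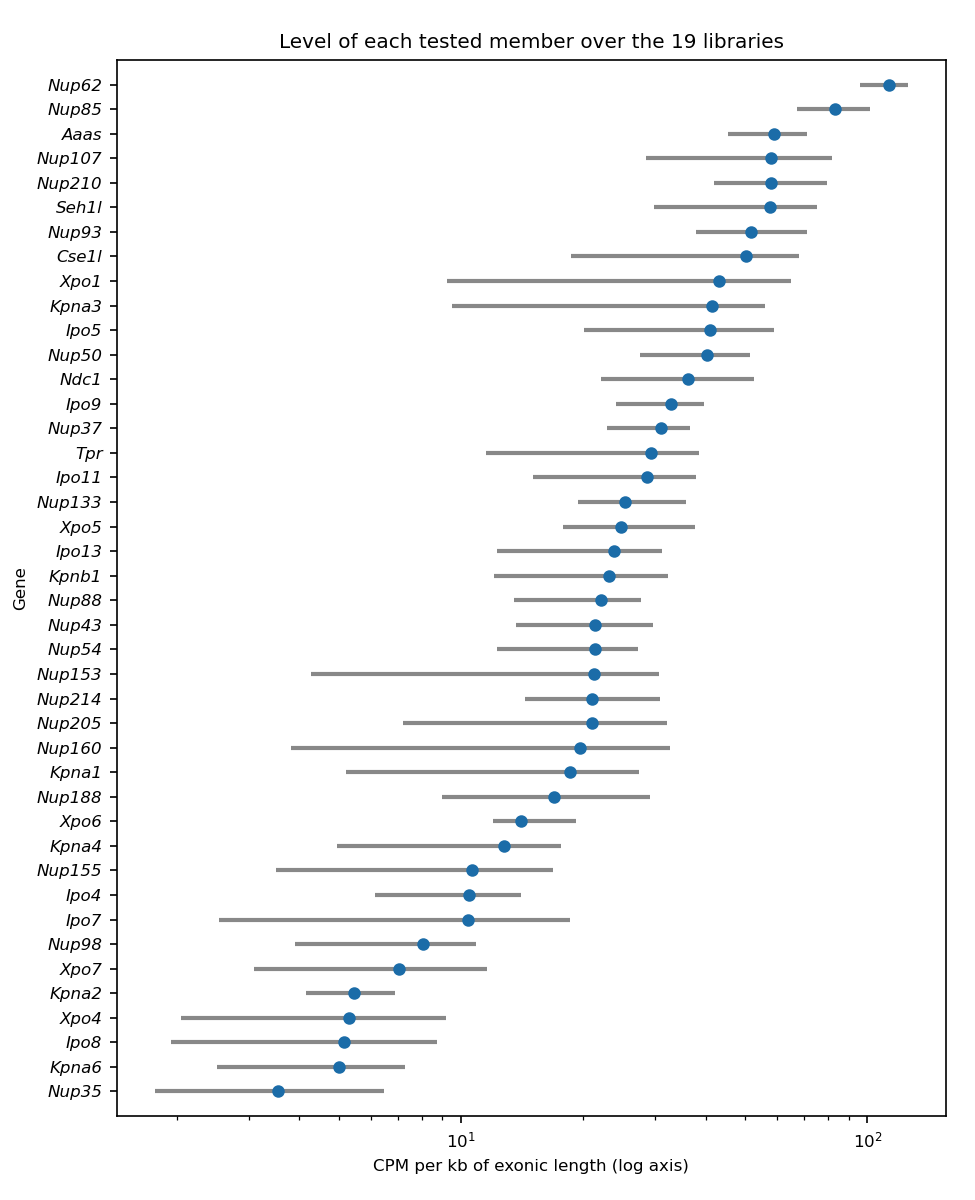
Level of each of the 42 tested members in CPM per kilobase of exonic length (log axis); points are means and grey bars run from the lowest to the highest of the 19 libraries. *Nup62* leads at 113 and *Nup35* is last at 3.54, and most neighbours have overlapping bars.

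Members also differed in how much they varied between libraries of 1 group. Over the 42 members the median SD of log2 CPM was 0.16 in CMP and 0.29 in LSK, and 0.18 in LSK without sh10 replicate B. Over the 15066 genes tested it was 0.30, 0.38 and 0.29. These sets were not matched for level, so the difference is not read as a trait of the members. *Nup85* had an SD of 0.08 in each cell type. *Nup153*, a protein of the nuclear basket, had an SD of 0.08 in CMP and 0.83 in LSK, of which 0.21 was left without sh10 replicate B.

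The comparison of cell types asked how these genes stood in CMP and in LSK without *Spehd* knockdown. In *Renilla* libraries, 7 members were higher in CMP, against 11% of all 15066 genes tested, and 1 was lower, against 8.73%. The higher ones were all structural pore genes, 3 of the Y complex, 2 of the inner ring and 2 of the cytoplasmic side, and the lower one was an exportin. The median log2 fold change of the 42 members was 0.09, and that of all genes was -0.02. The members' median was 0.058 without LSK *Renilla* replicate C and 0.16 without CMP *Renilla* replicate D. Read against these shares, the counts of members called lie near the background in both directions.

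*Nup85* (ENSMUSG00000020739.11, chr11:115564434-115583985 on the plus strand of GRCm38), part of an arm of the Y complex, had 242, 247, 261 and 250 CPM in LSK replicates A to D and 344, 334, 307 and 327 CPM in CMP replicates A to D. All CMP libraries lay above all LSK libraries, and the log2 fold change was 0.39 ± 0.07 (SE; edgeR adjusted p = 0.000638, n = 4 and 4). *Nup93* (ENSMUSG00000032939.14, chr8:94214564-94317227, plus strand), the inner ring protein that holds the channel in place, had 174, 209, 177 and 172 CPM in LSK and 277, 252, 231 and 255 CPM in CMP. Its groups were also apart, with a log2 fold change of 0.47 ± 0.10 (edgeR adjusted p = 0.0038).

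A pair of small beta-propeller proteins of the Y complex were higher in CMP as well. *Nup43* had 42.5, 48.8, 34.9 and 46.6 CPM in LSK and 59.2, 60.4, 57.3 and 63.8 CPM in CMP, a log2 fold change of 0.48 ± 0.12 (edgeR adjusted p = 0.0116). *Nup37* had 76.1, 85.8, 93.3 and 85.1 CPM in LSK and 115, 120, 97.9 and 111 CPM in CMP, a log2 fold change of 0.38 ± 0.11 (edgeR adjusted p = 0.0169). In both genes the groups did not overlap, although for *Nup37* LSK replicate C and CMP replicate C lay close to each other. The other 4 members of the complex, *Nup107*, *Nup133*, *Nup160* and *Seh1l*, did not pass, with log2 fold changes of 0.09 to 0.36.

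On the cytoplasmic side, *Nup88*, which anchors *Nup214* there, had 152, 168, 138 and 157 CPM in LSK and 191, 204, 203 and 206 CPM in CMP, a log2 fold change of 0.39 ± 0.11 (edgeR adjusted p = 0.0173). *Aaas* had 127, 138, 136 and 136 CPM in LSK and 184, 169, 170 and 175 CPM in CMP, with 0.38 ± 0.11 (edgeR adjusted p = 0.0174). Every CMP library was above every LSK library in both genes. *Nup35* had 7.82, 6.83, 8.73 and 9.5 CPM in LSK and 9.74, 17.1, 14.9 and 18.4 CPM in CMP, with 0.87 ± 0.25 (edgeR adjusted p = 0.0224). The groups of *Nup35* were apart by little, with CMP replicate A next to LSK replicate D, and this gene has few counts that are not shared with its copy.

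*Xpo7*, an exportin with a broad range of cargo that is known for its role in the nuclear condensation of maturing red cells, was the member that was lower in CMP. The gene (ENSMUSG00000022100.14, chr14:70654246-70766628, minus strand) had 220, 173, 175 and 161 CPM in LSK and 86.6, 91.6, 114 and 103 CPM in CMP. No library of one cell type reached the other, and the log2 fold change was -0.88 ± 0.27 (edgeR adjusted p = 0.0275). With log2 total counts as a covariate *Xpo7* did not pass, at -0.76 (edgeR adjusted p = 0.0698), and with an offset for exonic length its value was -0.56 (edgeR adjusted p = 0.0468). The other exportins lay between -0.07 and 0.19, and 7 of the 8 importin beta genes had a negative value, down to -0.42, without passing the test. Of all genes tested, 48.2% had a positive value.

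Without overlap between the 4 CMP and the 4 LSK *Renilla* libraries, 14 members were higher in CMP, against 16.4% of genes tested, and 2 were lower, *Xpo7* and *Ipo4*, against 14.7%. DESeq2 called 7 members higher and 1 lower, where it called 22.3% of its genes in either direction. Without LSK sh10 replicate B, which is in the fit but in neither group compared, edgeR called 13 members, of which 12 were higher, and all 8 named above were among them, while the share of all genes called rose from 19.8% to 26.9%. In the 8 *Renilla* libraries alone it called 16, with the same 8 among them and 4 lower (*Ipo11*, *Ipo9*, *Nup210* and *Xpo7*), against 34.5% of genes. Leaving out LSK *Renilla* replicate A left 4 calls, against 14.5% of genes, and leaving out CMP *Renilla* replicate A left 5, against 14.1%. *Nup43*, *Nup85* and *Nup93* were called whichever library was left out, whereas *Xpo7* lost its call without LSK *Renilla* replicate A or CMP *Renilla* replicate A, B or D.

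The differences moved with gene length. Over the 42 members, the log2 fold change from LSK to CMP and log2 exonic length had a Pearson r of -0.61, as a description across genes that share libraries. The 21 shorter members had a median of 0.22 and the 21 longer ones -0.07, and genes in the same length ranges had medians of -0.00 and -0.18. With an offset for exonic length in each library, 8 members were higher, against 11.2% of genes, and 1 was lower, against 8.47%, and the members' median was 0.21. The part of length in the single calls was not tested beyond this.

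**Figure D3:**
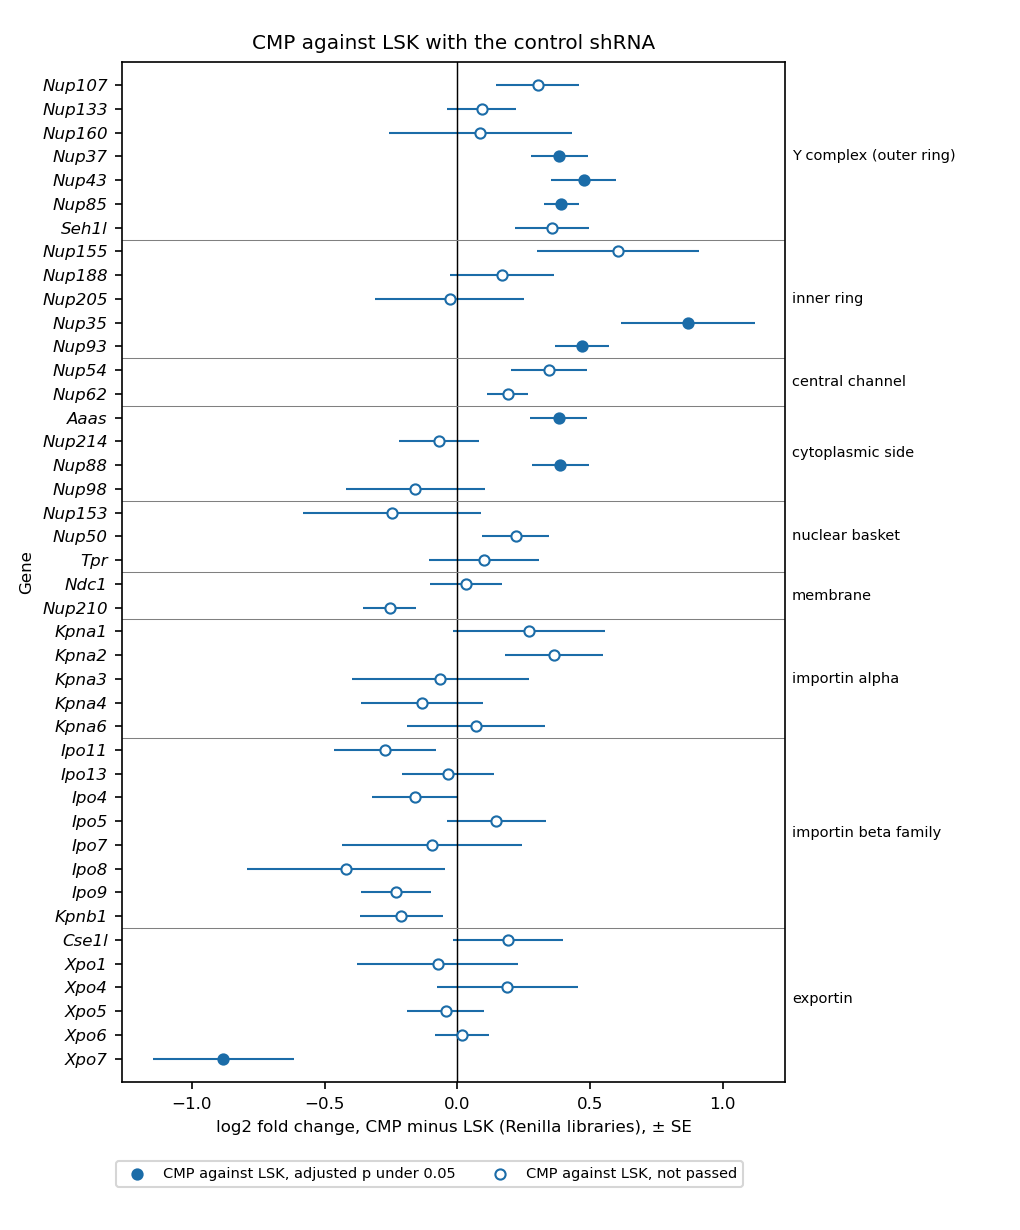
Log2 fold change of each tested member from LSK to CMP in *Renilla* libraries (x axis; bars are ± 1 SE), with members grouped by role (y axis); filled points passed an adjusted p of 0.05. The 7 filled points right of 0 are ring and cytoplasmic side genes, and the only filled point left of 0 is *Xpo7* at -0.88.

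For 2 members of the inner ring, the 250 bases before the RefSeq start are shown, since one (*Nup93*) was higher in CMP and the other (*Nup188*) differed between the hairpins below. Build and strand are GRCm38.p6, plus strand for both, and capitals mark every match, on either strand, to the CCAAT box, the GC box (GGGCGG), the ETS core (CCGGAAG), the E-box (CACGTG), the palindromic NRF1 motif or the TATA box (TATAAA).
*Nup93*, chr8:94214314-94214563: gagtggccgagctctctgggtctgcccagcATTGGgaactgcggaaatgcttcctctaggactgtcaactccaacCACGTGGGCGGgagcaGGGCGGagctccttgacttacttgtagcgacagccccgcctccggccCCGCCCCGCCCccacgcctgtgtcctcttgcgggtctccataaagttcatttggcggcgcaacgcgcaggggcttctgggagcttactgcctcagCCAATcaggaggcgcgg
*Nup188*, chr2:30286166-30286415: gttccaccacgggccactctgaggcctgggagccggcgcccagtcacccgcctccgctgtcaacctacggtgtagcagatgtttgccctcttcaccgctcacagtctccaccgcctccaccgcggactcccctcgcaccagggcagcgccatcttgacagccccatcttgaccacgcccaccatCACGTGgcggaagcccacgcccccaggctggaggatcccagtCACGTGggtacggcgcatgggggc
RefSeq listed promoters for 32 of the tested members and for 10795 of all genes tested. The CCAAT box was found in 16 of the 32, against 36.4% of all, the GC box in 21, against 57.5%, and the E-box in 4 (*Ipo7*, *Nup188*, *Nup54* and *Nup93*), against 8.32%. The ETS core was found in 6, against 13.8%, the NRF1 motif in 5, against 8.08%, and the TATA box in 2, against 6.5%. In *Nup93* a match to the E-box overlapped one to the GC box, and a further pair of GC box matches overlapped each other. The median GC content of these windows was 64.2% in members and 59.6% over all, and its part in the shares of GC-rich words was not tested.

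Knockdown of *Spehd* in CMP was first read with both hairpins as 1 group. No member passed edgeR's adjusted threshold, where 0.0387% of 12912 genes were called higher and 0.0774% lower. An unadjusted p under 0.05 was reached by 16 members, all higher in knockdown, against 16.6% of genes in either direction. A positive value was held by 39 of the 42 members, against 52.9% of all genes tested. The members' median log2 fold change was 0.18, beside 0.02 over all genes. It was 0.12 without CMP sh10 replicate B and 0.28 without CMP sh20 replicate B. It was 0.61 with log2 total counts as a covariate, and -0.09 with that covariate in a fit of all 19 libraries, which was chosen after seeing the data. DESeq2 called 9 members higher (*Cse1l*, *Ipo7*, *Kpna1*, *Ndc1*, *Nup153*, *Nup205*, *Nup210*, *Nup98* and *Xpo1*), against 4.77% of its genes.

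In 5 members every *Spehd* library lay above every *Renilla* library, against 2.88% of genes tested, and in none below, against 6.37%. These were *Ipo7*, *Kpna6*, *Ndc1*, *Nup153* and *Nup98*. The highest value was that of *Ipo7*, an importin known to carry ribosomal proteins and histones, at 0.71 ± 0.18 (edgeR adjusted p = 0.0969). The lowest value was that of *Kpna2*, -0.20 ± 0.18 (edgeR adjusted p = 0.654). With log2 total counts as a covariate *Ipo7* was at 0.22 and *Kpna2* at 0.16. The lowest value of *Ipo7* over the alternatives was 0.087. Without CMP sh20 replicate B edgeR called 5 members higher (*Kpna3*, *Nup153*, *Nup160*, *Nup210* and *Xpo5*), against 1.18% of genes called higher, and without replicate C it called 1 (*Ndc1*), against 0.0553%. With the hairpins as separate groups whose effects were averaged it called 5 (*Ipo7*, *Ndc1*, *Nup153*, *Nup210* and *Xpo1*), against 1.35% of genes called higher.

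By role, the positive values were spread over the pore and its carriers. All 6 exportins, all 8 importin beta genes, all 5 inner ring genes and all 4 genes of the cytoplasmic side had values above 0, with medians of 0.32, 0.18, 0.13 and 0.23. The Y complex had a median of 0.09 and the 2 membrane genes 0.45. No role held a called gene. Of all genes tested, 52.9% had a positive value. The 21 longer members had a median of 0.36 and the 21 shorter ones 0.15. Genes of the same length ranges had medians of 0.16 and 0.03.

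The hairpins were then taken separately, in a fit of the 3 CMP groups, and both comparisons used the same 4 *Renilla* libraries. With sh10, 6 members were higher, against 0.977% of 13824 genes, and none was lower, against 0.991%. A p under 0.05 without adjustment was reached by 24 members, all higher, against 21.2% of genes in either direction, and the members' median was 0.35, beside -0.01 over all genes. DESeq2 called 19 members, all higher and the 6 among them, against 9.26% of its genes in either direction. With sh20, 1 member was higher, against 1.9% of genes, and 1 was lower, against 4.27%, with a median of 0.09 beside 0.01. A p under 0.05 without adjustment was reached by 9 members, 6 higher and 3 lower, against 24.6% of genes, and DESeq2 called 3 higher and 1 lower, against 11% of its genes in either direction.

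*Nup153* (ENSMUSG00000021374.10, chr13:46679905-46727940, minus strand) had the lowest adjusted p with sh10. It had 121, 120, 132 and 123 CPM in *Renilla* replicates A to D, 216, 204 and 206 CPM in sh10 replicates A to C, and 142 and 163 CPM in sh20 replicates B and C. The 3 groups did not overlap, with sh20 between the others. The log2 fold change was 0.75 ± 0.08 with sh10 (edgeR adjusted p = 0.00442) and 0.31 ± 0.09 with sh20 (edgeR adjusted p = 0.0593), and from sh10 to sh20 it was -0.43 ± 0.09 (edgeR adjusted p = 0.0286).

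Both genes of the pore membrane, *Nup210* and *Ndc1*, rose with sh10. *Nup210*, a membrane protein with a large domain in the lumen of the envelope, had 440, 601, 490 and 515 CPM in *Renilla*, 736, 752 and 835 CPM in sh10 and 557 and 608 CPM in sh20 libraries. *Ndc1*, which anchors the pore in the membrane, had 175, 167, 166 and 155 CPM in *Renilla*, 229, 259 and 229 CPM in sh10 and 230 and 177 CPM in sh20 libraries. For both, sh10 was above every *Renilla* library, with log2 fold changes of 0.60 ± 0.09 for *Nup210* (edgeR adjusted p = 0.0219) and 0.52 ± 0.10 for *Ndc1* (edgeR adjusted p = 0.0335). The sh20 libraries overlapped *Renilla* in *Nup210* and sh10 in *Ndc1*, and neither gene passed in the comparison of sh20 with sh10.

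Among the carriers, *Xpo1*, *Kpnb1* and *Ipo5* rose with sh10. *Xpo1* had 291, 323, 297 and 266 CPM in *Renilla*, 410, 467 and 404 CPM in sh10 and 321 and 316 CPM in sh20 libraries. Its log2 fold change with sh10 was 0.53 ± 0.07 (edgeR adjusted p = 0.0164), and sh20 was lower than sh10, at -0.41 ± 0.09 (edgeR adjusted p = 0.0319). The sh20 libraries of *Xpo1* lay within the *Renilla* range.

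*Kpnb1* (ENSMUSG00000001440.5, chr11:97159714-97187881, minus strand) had 144, 144, 152 and 156 CPM in *Renilla*, 213, 194 and 198 CPM in sh10 and 119 and 127 CPM in sh20 libraries. The hairpins stood on opposite sides of the control without overlap, with 0.44 ± 0.07 for sh10 (edgeR adjusted p = 0.0235), -0.26 ± 0.08 for sh20 (edgeR adjusted p = 0.0846) and -0.70 ± 0.08 from sh10 to sh20 (edgeR adjusted p = 0.00793). *Ipo5*, an importin for ribosomal proteins and other cargo, had 232, 278, 250 and 240 CPM in *Renilla*, 314, 354 and 315 CPM in sh10 and 208 and 241 CPM in sh20 libraries. The values with sh10 were above all others, with 0.39 ± 0.08 against *Renilla* (edgeR adjusted p = 0.0462) and -0.53 ± 0.10 from sh10 to sh20 (edgeR adjusted p = 0.0202).

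With sh20 the 2 members that passed were *Ipo7* and *Nup188*. *Ipo7* (ENSMUSG00000066232.4, chr7:110018274-110056609, plus strand) had 106, 117, 97.2 and 69.2 CPM in *Renilla*, 157, 121 and 138 CPM in sh10 and 170 and 207 CPM in sh20 libraries. Every knockdown library was above every *Renilla* library, and the log2 fold change was 0.97 ± 0.18 with sh20 (edgeR adjusted p = 0.0191) and 0.51 ± 0.17 with sh10, which did not pass. From sh10 to sh20 the difference in *Ipo7* was 0.46, also not passed.

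*Nup188* (ENSMUSG00000052533.14, chr2:30286397-30344266, plus strand), a large scaffold protein of the inner ring, had 103, 126, 126 and 96 CPM in *Renilla*, 173, 182 and 158 CPM in sh10 and 55.9 and 78.7 CPM in sh20 libraries. The 3 groups were apart, with sh10 highest and sh20 lowest. The fall with sh20 was -0.73 ± 0.17 (edgeR adjusted p = 0.0356), the value with sh10 was 0.60 and did not pass, and sh20 lay -1.33 ± 0.18 from sh10 (edgeR adjusted p = 0.00793). No match to the sh20 seed was found in the 388 bases of its 3′ UTR. That of *Kpnb1*, of 2967 bases, held 1 match, and the part of such matches was not tested. An antisense gene model, Gm14471, covers 7.88% of the exonic bases of *Nup188*, and Gm11583 covers 7.07% of those of *Kpnb1*. The library kit does not mark the strand.

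The comparison of sh20 with sh10 needs no control library and tests the difference between the hairpins. In it 6 members were lower with sh20 (*Nup188*, *Kpnb1*, *Ipo5*, *Nup153*, *Xpo1* and *Nup50*), against 3.64% of 13824 genes, and none was higher, against 2.77%. *Nup50*, a basket protein that helps to release import cargo, had 194, 205, 208 and 206 CPM in *Renilla*, 246, 249 and 252 CPM in sh10 and 174 and 209 CPM in sh20 libraries, and differed by -0.36 ± 0.08 (edgeR adjusted p = 0.0384). The members' median was -0.28, beside 0.00 over all genes, and 36 of the 42 values were negative, where 50.4% of all genes had a positive value. DESeq2 called 10 lower and 1 higher, *Nup43*, against 13.2% of its genes in either direction. Leaving out sh10 replicate A or B left 2 calls, *Kpnb1* and *Nup188*, which were called whichever library was left out, and leaving out sh10 replicate C left 3, while the share of all genes called fell from 6.41% to 0.999%, 0.615% and 1.93%. With log2 total counts as a covariate 0 members and 0% of genes were called, with *Kpnb1* at -0.65 and *Nup188* at -1.51, and every sh20 library was deeper than every sh10 library. Without sh20 replicate C the count was 17, against 23.9% of genes, but sh20 is then a single library that is assumed to vary like the other groups.

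**Figure D4:**
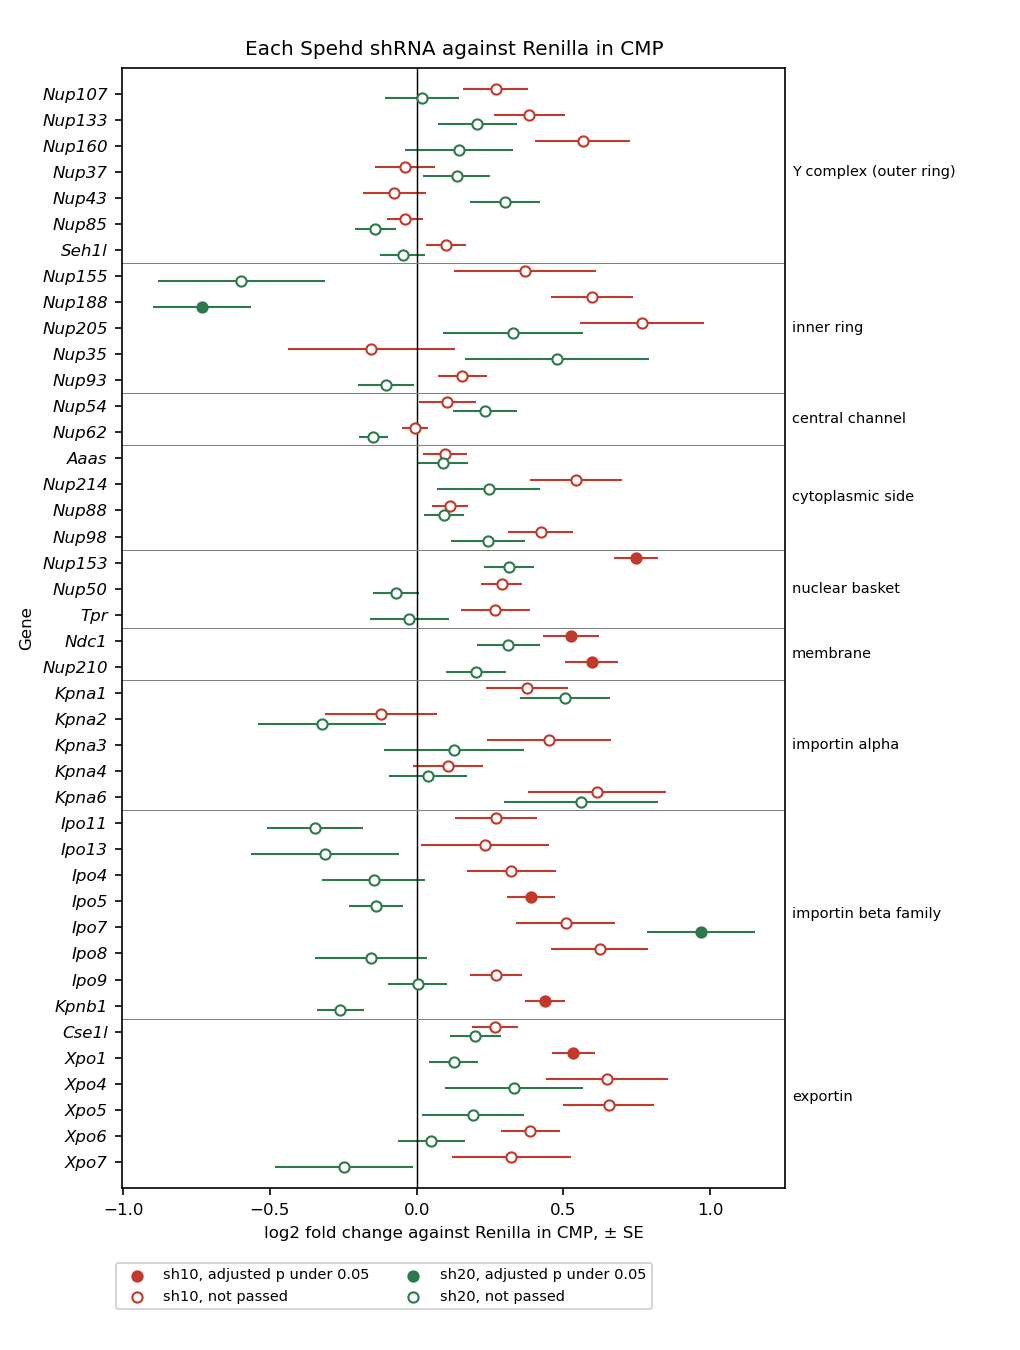
Log2 fold change of each tested member against *Renilla* in CMP (x axis; bars are ± 1 SE) for sh10 (red) and sh20 (green), with members grouped by role (y axis); filled points passed an adjusted p of 0.05. Most red points lie right of 0, with a median of 0.35, and the green points of *Nup188* at -0.73 and *Ipo7* at 0.97 are the only filled ones of sh20.

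In these libraries the values also moved with length and depth. With sh10 in CMP, log2 fold change and log2 exonic length had a Pearson r of 0.64 over the 42 members, and with sh20 0.06. The 21 longer members had a median of 0.42 with sh10 and the 21 shorter ones 0.23, beside 0.18 and -0.00 for genes of the same length ranges. With an offset for exonic length 3 members remained higher with sh10, and the members' median was 0.21. With log2 total counts as a covariate no member passed for either hairpin and 0% of genes were called. In that fit the values with sh10 were 0.80 for *Nup153*, 0.50 for *Kpnb1*, 0.38 for *Nup210*, 0.28 for *Ndc1*, 0.27 for *Xpo1* and 0.17 for *Ipo5*. With sh20 they were 1.60 for *Ipo7* and -1.18 for *Nup188*, in a design where every knockdown library of CMP was deeper than every *Renilla* library. Over the alternatives other than leaving out libraries, *Ipo7* with sh20 ranged from 0.14 to 1.60 and *Nup188* from -1.18 to -0.72.

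The sh10 count also rested on single libraries. Leaving out any 1 of the sh10 libraries left 1 call, and so did leaving out *Renilla* replicate A, while the share of all genes called fell from 1.97% to between 0.0659% and 0.153%. Leaving out *Renilla* replicate D left 2 calls (0.315% of genes), replicate C left 3 (0.726%) and replicate B gave 7 (2.37%). Without sh20 replicate B or C, which are in the fit but not in the comparison, the count was 17 or 18, all higher and the 6 among them, against 3.89% and 4.19% of genes called higher. The members' median with sh10 was between 0.31 and 0.40 in all of these, but 0.08 in a fit of all 19 libraries with log2 total counts as a covariate, chosen after seeing the data. In that fit *Xpo1* with sh10 was at -0.034 and the members' median with sh20 was -0.28. For the other members called with sh10, the lowest values over the alternatives other than leaving out libraries were also smaller. They were 0.014 for *Ipo5*, 0.16 for *Kpnb1*, 0.28 for *Ndc1*, 0.38 for *Nup210* and 0.46 for *Nup153*. With sh20, the count was 1 to 7 as single libraries were left out, and *Ipo7* was called each time. The 7 were called without sh20 replicate C, against 21.9% of genes, and leaving out an sh20 library again leaves a single one that is assumed to vary like the other groups. *Nup188* kept its call with sh20 only without sh20 replicate C or *Renilla* replicate D.

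The pathway has genes whose symbols the rule does not match. Of 8 further pore components, *Nupl1* had 0 to 20 counts in a library and was not tested. Among the other 7 and 14 genes of the Ran cycle and other carriers, 4 were higher in CMP than in LSK (*Rae1*, *Sec13*, *Rcc1* and *Ranbp3*). This stands against 11% of genes tested, and none was lower, against 8.73%. With sh10 in CMP, *Ahctf1*, which seeds pores on chromatin after mitosis, rose by 0.94 ± 0.15 (edgeR adjusted p = 0.0221) and *Tnpo1*, the transportin for RNA-binding proteins, by 0.79 ± 0.15 (edgeR adjusted p = 0.035). Of all genes tested, 0.977% were called higher with sh10. With sh20, *Ranbp1*, a regulator of Ran, was lower at -0.42 ± 0.09 (edgeR adjusted p = 0.0272), against 4.27% of genes called lower. *Ahctf1* and *Tnpo2* were lower with sh20 than with sh10, against 3.64% of genes. No other gene of these lists passed in any knockdown comparison.

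Marker genes moved with the hairpins too. In CMP, 0.991% of all genes tested were lower and 0.977% higher with sh10, and 4.27% were lower and 1.9% higher with sh20. With sh10 in CMP, 2 of 13 tested LSK and stem markers, 3 of 10 immediate early genes, 1 of 5 megakaryocyte and 1 of 4 lymphoid markers were lower, 1 of 7 mast cell and basophil markers was higher, and of the 5 red cell genes, which summed to 12.5 to 26.1 CPM against 25.8 to 75.9 CPM in *Renilla* libraries, none was called. The 20 M phase genes summed to 4873 to 5035 CPM with sh10, 4462 to 4781 CPM with sh20 and 4186 to 4572 CPM with *Renilla*, and none of them was called with sh10 or sh20 against *Renilla*. With sh20, 4 of 15 S phase genes, 3 of 10 immediate early genes, 1 of 13 LSK and stem markers and 1 of 7 mast cell and basophil markers were lower, and of the 7 erythroid markers 2 were higher and 2 lower. From sh10 to sh20 in CMP, 4 of 15 S phase and 1 of 20 M phase genes were lower, against 3.64% of all genes. So were 1 of 13 LSK and stem markers and 1 of 7 mast cell and basophil markers. There 2 of the LSK and stem markers, 2 of 10 immediate early genes, 1 of 5 megakaryocyte and 1 of 4 lymphoid markers were higher, against 2.77%. The part of these markers in the members' values was not tested.

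**Figure D5:**
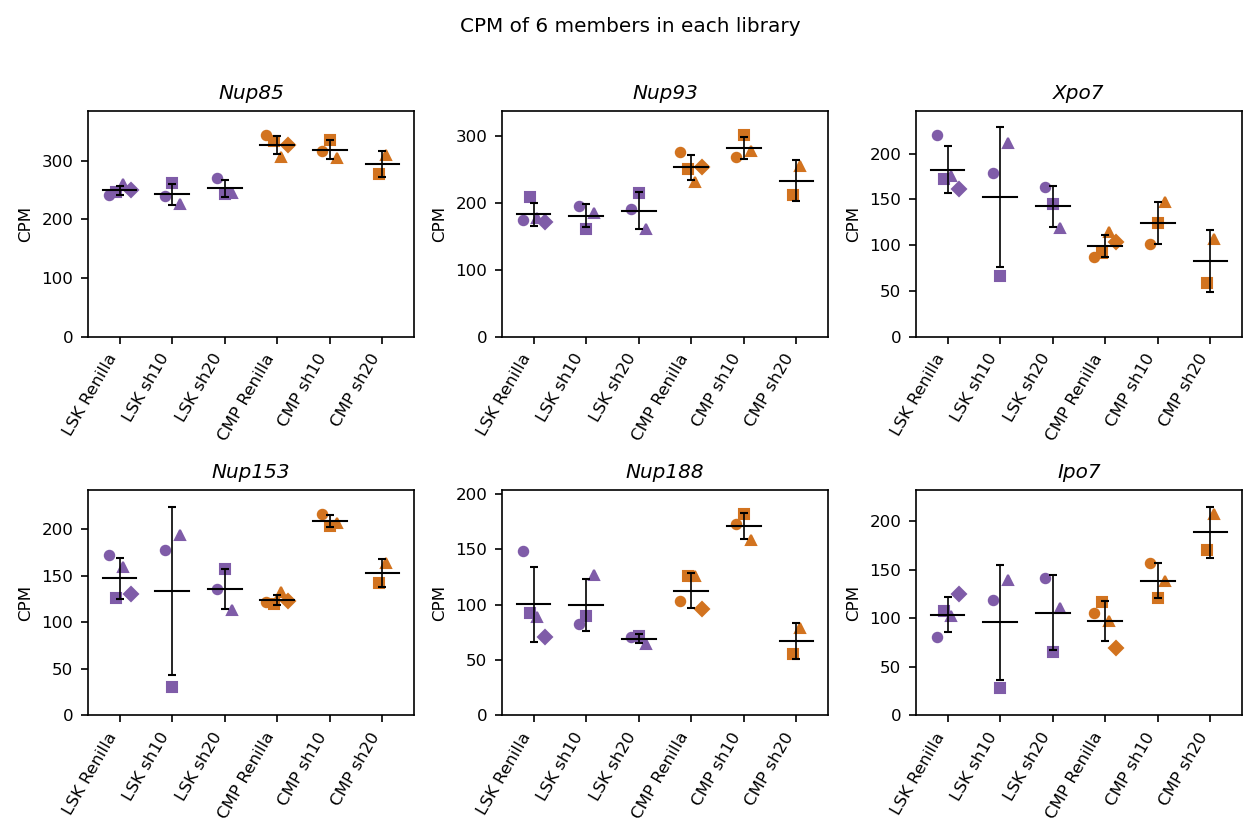
CPM (y axis, from 0) of 6 members in each of the 19 libraries, grouped by cell type and shRNA (x axis), with LSK in purple and CMP in orange; circles, squares, triangles and diamonds are replicates A, B, C and D, and black bars are mean ± SD. *Nup85* and *Nup93* are higher in CMP, *Xpo7* is lower, *Nup153* and *Nup188* differ between hairpins in CMP, and *Ipo7* is higher there with sh20 than with *Renilla*, while LSK sh10 replicate B is the low square in *Xpo7*, *Nup153* and *Ipo7*.

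In LSK no member passed edgeR's threshold in any knockdown comparison. With both hairpins as 1 group, 0% of 13441 genes were called, 1 member had an unadjusted p under 0.05, against 3.66% of genes, and DESeq2 called 0 members and 0% of its genes. With sh10, edgeR called 0% of 13828 genes, no member had an unadjusted p under 0.05, against 3.3%, and DESeq2 called 0 members and 0.00986% of its genes. With sh20, edgeR called 0%, 5 members had an unadjusted p under 0.05 (*Nup37* and *Ipo13* higher, and *Ipo4*, *Kpnb1* and *Nup188* lower), against 8.33%, and DESeq2 called 0 members and 1.16% of its genes. From sh10 to sh20, edgeR called 0%, 1 member had an unadjusted p under 0.05, against 9.17%, and DESeq2 called 0 members and 1.47% of its genes.

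The lowest member with both hairpins in LSK was *Kpnb1*, with 193, 153, 162 and 182 CPM in *Renilla*, 148, 79.6 and 162 CPM in sh10 and 118, 114 and 137 CPM in sh20 libraries. The groups overlapped, and the log2 fold change was -0.46 ± 0.17 (edgeR adjusted p = 0.998). The highest was *Xpo4*, an exportin of a few known cargos, with 43.3, 52.4, 39.6 and 44.3 CPM in *Renilla*, 52.9, 22 and 50.2 CPM in sh10 and 98.4, 51.6 and 54.6 CPM in sh20 libraries, and a log2 fold change of 0.28 ± 0.30 (edgeR adjusted p = 0.998). Without LSK sh10 replicate B the values were -0.36 for *Kpnb1* and 0.435 for *Xpo4*, and without LSK sh20 replicate A, the library with 98.4 CPM, *Xpo4* was at 0.051.

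Taken by hairpin, the extremes in LSK were *Kpna4* (-0.40) and *Aaas* (0.26) with sh10, and *Ipo4* (-0.56) and *Xpo4* (0.58) with sh20, none of which passed. From sh10 to sh20 they were *Ipo4* (-0.64) and *Xpo4* (0.68). Without LSK sh10 replicate B, *Kpna4* with sh10 was at -0.069 and *Aaas* at 0.047. Without it *Ipo4* and *Xpo4* were at -0.58 and 0.56 with sh20, and at -0.50 and 0.37 from sh10 to sh20. Without LSK sh20 replicate A, *Xpo4* was at 0.21 with sh20 and at 0.31 from sh10 to sh20, and without LSK sh10 replicate C, *Kpna4* with sh10 was at -0.75. The mature neutrophil markers had a median log2 fold change of -4.46 with sh20 in LSK, with none of 6 tested called, and their part was not tested. Their mean log2 CPM was -0.27 and 0.36 in LSK *Renilla* replicates A and C, and 4.66 and 3.39 in replicates B and D. In LSK sh20 libraries it was -0.37 to 0.19. *Ipo4* had 52, 53.4, 52.9 and 50.7 CPM in *Renilla* and 33.9, 45.4 and 28.7 CPM in sh20 libraries, without overlap, while sh10 libraries reached 64.3 CPM.

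The members' medians in LSK were -0.02 with both hairpins, -0.07 with sh10, 0.00 with sh20 and 0.07 from sh10 to sh20. Without LSK sh10 replicate B they were 0.05, 0.09, -0.01 and -0.14, and without LSK sh10 replicate C the medians with both hairpins, with sh10 and from sh10 to sh20 were -0.063, -0.22 and 0.24. With sh20 the median was between -0.049 and 0.03 as single libraries were left out. The count of calls was 0 in each, whichever LSK library was left out. Over the alternatives other than leaving out libraries, the median was -0.19 to 0.007 with both hairpins and -0.32 to -0.027 with sh10. It was -0.14 to 0.03 with sh20 and 0.03 to 0.18 from sh10 to sh20.

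Whether knockdown differed between the cell types was tested as an interaction over all 19 libraries. No member passed in edgeR, which called 0.0531% of 15066 genes, and DESeq2 called 0 members and 0.624% of its genes. An unadjusted p under 0.05 was reached by 3 members, *Nup210*, *Kpnb1* and *Ndc1*, against 10.1% of genes, each with a more positive knockdown value in CMP than in LSK. The members' median interaction was 0.23, beside -0.04 over all genes. It was 0.086 to 0.29 over the alternatives other than leaving out libraries. Without LSK sh10 replicate B it was 0.14, the lowest as single libraries were left out. The extremes were *Ipo7* at 0.78 ± 0.45 (edgeR adjusted p = 0.546) and *Ipo13* at -0.30 ± 0.23 (edgeR adjusted p = 0.645), and without that library they were at 0.57 and -0.25. *Ipo13* was at -0.56 without CMP sh20 replicate B and at -0.12 without CMP sh20 replicate C.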

How the data were processed

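The authors aligned RNA-seq reads to mm10 with STAR, removed duplicates with Picard, counted reads on GENCODE genes with HTSeq and deposited raw counts per gene for each library, with no normalization. SMART-Seq v4 cDNA was used. The members, the roles and the marker and pathway lists were chosen with earlier results of these data known. Rows naming no gene held 72.0% to 77.7% of each file's total and were left out. Counts were tested with edgeR 4.0.16 (quasi-likelihood, TMM, R 4.3.3) over all genes that passed filterByExpr (min.count = 10, min.total.count = 15). Tests were two-sided, and a call was a Benjamini-Hochberg adjusted p under 0.05. The cell type and interaction comparisons were fitted on all 19 libraries and the others within 1 cell type. Fold changes are log2 with their SE, log2 CPM used a prior count of 2, and CPM used TMM library sizes. DESeq2 1.42.0, other normalizations and filters, a replicate block, a depth covariate, a length offset and leaving out each library were alternatives. Named genes were members called, or the highest and lowest member where none was. The scripts were tested on simulated data. No libraries agreed within counting noise. Between libraries of 1 group, chi-square per degree of freedom was 27.8 for the CMP sh20 pair and 4.3 to 8.1 for other CMP pairs. In LSK it was 5.2 to 45.2. Seeds, promoters and shared 50-base words were read from RefSeq and GENCODE vM21.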

Additional observations from a re-analysis of the deposited data

Results flagged for a closer look

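The 23 named members were examined in both groups of 4 libraries, as was the members' median, and 1 of these 48 sets had a library far from the others. In LSK *Renilla* replicate B, *Nup93* had a log2 CPM of 7.71, while the other 3 libraries of that group lay between 7.43 and 7.47, and the gap took a share of 0.836 of the group's range, above Dixon's limit for 4 libraries. Chance gives such a gap in about 1 of 20 groups. The higher level of *Nup93* in CMP was called with and without this library.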

How the results depend on the processing

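The counts of members called depended on the processing. In the comparison of CMP with LSK, 8 were called at first, 4 without a filter on low counts and 16 in the *Renilla* libraries alone, as the share of all genes called went from 19.8% to 8.58% and 34.5%. For both hairpins in CMP, 0 became 9 with DESeq2, 5 with the hairpins averaged as separate groups and 1 with all 19 libraries in 1 fit, and the share of all genes went from 0.116% to 9.39%, 4.88% and 2.42%. For sh10 in CMP, 6 became 19 with DESeq2, 16 without a filter, 3 with the length offset and 0 with the covariate of log2 total counts, as the share of genes called went from 1.97% to 9.26%, 2.66%, 1.1% and 0%. For sh20 in CMP, 2 became 4 with DESeq2, 4 with upper quartile normalization and 0 with the covariate, and the share from 6.17% to 11%, 7.69% and 0%. From sh10 to sh20 in CMP, 6 became 11 with DESeq2, 10 without a filter and 0 with the covariate, and the share from 6.41% to 13.2%, 4.95% and 0%. A fit of all 19 libraries with the covariate, chosen after seeing the data, gave 0 for sh10, 0 for sh20 and 2 from sh10 to sh20 (0.00664%, 0.133% and 3.87% of genes), and in it *Xpo4* in LSK turned to -0.052 and *Xpo1* with sh10 in CMP to -0.034; with the covariate within CMP, *Kpna2* turned to 0.16. The members' median for sh10 was 0.21 with the offset and 0.08 in the added fit, and for both hairpins 0.61 with the covariate and -0.09 in the added fit. In that fit it was -0.28 for sh20 and -0.42 from sh10 to sh20. The cause of these changes was not tested. Leaving out single libraries gave 4 to 13 calls for CMP against LSK (14.1% to 26.9% of genes), 0 to 5 for both hairpins in CMP (0% to 2.08%), 1 to 18 for sh10 (0.0659% to 6.99%), 1 to 7 for sh20 (3.13% to 21.9%) and 2 to 17 from sh10 to sh20 (0.615% to 23.9%). All 4 comparisons in LSK and the interaction stayed at 0 calls under each alternative run. With the replicate block the counts were 8 for CMP against LSK (17.8% of genes), and 0 for sh10, sh20 and sh20 against sh10 in CMP (0.0362%, 0% and 0.203%). The replicate letters were not taken as pairs: deviations of libraries with the same letter had correlations of -0.001 to 0.21 across cell types and -0.079 to 0.044 within a cell type. Depth limits *Kpna7*, *Kpna2* and *Nup35*, with at most 5, 100 and 124 counts in a library.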
